A study of Homo sapiens with 48 samples.

Results

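Of the 60610 genes in the count table, 6 are described here. These are the early growth response factors EGR1, EGR2, EGR3 and EGR4 and the corepressors NAB1 and NAB2. They were chosen by gene symbol, with no measured value in the rule, and 5 of the 6 passed the filter on low counts. EGR4 did not pass it and is given as counts.

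EGR factors are zinc finger proteins that bind GC-rich sites and belong to the immediate-early genes, whose transcription starts within minutes of a growth factor signal without new protein synthesis. Serum response factor (SRF), which binds CArG boxes together with its cofactors of the ternary complex factor and myocardin-related families, is the best known activator of EGR1 transcription. NAB1 and NAB2 (NGFI-A binding proteins) carry no DNA-binding domain. They attach to a repression domain of EGR1, EGR2 and EGR3 and bring in the NuRD complex of chromatin remodellers and deacetylases. NAB2 is itself known as a gene that EGR factors can activate, so that the pair forms a feedback loop, whereas NAB1 is usually described as expressed without stimulation.

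The cells were HEK293, a human embryonic kidney line, as a single clone (B6) that had been obtained by limiting dilution under puromycin and stably carries AT1R, the G protein-coupled receptor of the peptide hormone angiotensin II. They were held in serum-free medium for 6 h or 24 h without addition (control), with 1 nM angiotensin II (AII), with 10 µg/L EGF, the ligand of the growth factor receptor EGFR, or with both (AII + EGF), and all groups share the AT1R transgene. Whether libraries of a group came from separate cultures is not stated in the labels, so the p-values measure the spread between libraries, which may be technical. Poly(A) RNA was sequenced in 48 libraries, 6 in each of the 8 groups, of which 38 were used: 4 control, 5 AII, 3 EGF and 4 AII + EGF libraries at 6 h, and 6 control, 5 AII, 5 EGF and 6 AII + EGF libraries at 24 h.

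The 38 libraries held 17.78 to 29.96 M counts each. The 10 libraries left out were 4 near-identical pairs (chi-square per degree of freedom 0.397 to 0.505, against 2.02 for the next closest pair of libraries), of which 3 pairs cross groups, and 2 libraries that went against their labels. That next pair was AII 6 h replicates 1 and 2, followed by EGF 6 h replicates 3 and 4 (3.32) and AII + EGF 24 h replicates 1 and 2 (3.96). These libraries were used, each pair shares a group and has consecutive titles, and whether its libraries are independent is not stated. On a scale from AII 6 h (0) to AII + EGF 6 h (1) over 1488 genes without the 6 described here, replicate 6 of AII 6 h, as labelled, scored 0.862 and replicate 6 of AII + EGF 6 h scored -0.01. The HEK293 markers VIM, KRT8, KRT18, NEFL, NEFM and CDH2 were at or above 18.1 CPM (counts scaled to library size with TMM factors) in every library used, and markers of blood, endothelium, liver, podocytes and tubule reached at most 1.52 CPM (VWF). After AII + EGF 2 of the HEK293 markers were themselves called as higher at 6 h, NEFM (log2 change 1.32, from 3443 to 8592 CPM) and KRT18 (0.97, from 47.2 to 92.3 CPM), and NEFM at 24 h (0.76), while DESeq2 called 3 and 2. Their part in the results was not tested. Libraries of the last run of titles at 24 h (replicate 6 of each group) stood apart in the transgene too: AGTR1 was at 4667 CPM in control, 5355 CPM in AII, 6615 CPM in EGF and 8087 CPM in AII + EGF, the lowest of each group.

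Promoters are shown so that the SRF and EGR motifs of the genes described below can be seen. RefSeq promoter entries (GRCh38.p14, 250 bases before to 50 after a start, both strands searched) were found for 5 of the 6 genes: 1 each for EGR1, EGR4 and NAB2, and 3 each for EGR2 and NAB1. The 250 bases before the start are printed for EGR1 (chr5:138465229-138465478, plus strand), for the EGR2 start that has a CArG box (chr10:62816367-62816616, minus strand), for the first NAB1 start (chr2:190648645-190648894, plus strand) and for NAB2 (chr12:57088864-57089113, plus strand). Capitals mark CArG boxes, the SRF motif, and matches to the EGR site GCGNGGGCG on either strand.
EGR1: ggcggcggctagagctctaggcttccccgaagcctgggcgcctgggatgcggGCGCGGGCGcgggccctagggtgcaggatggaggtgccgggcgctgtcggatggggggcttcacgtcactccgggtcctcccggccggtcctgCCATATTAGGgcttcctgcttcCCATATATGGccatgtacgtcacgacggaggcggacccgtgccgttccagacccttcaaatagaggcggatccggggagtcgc
EGR2: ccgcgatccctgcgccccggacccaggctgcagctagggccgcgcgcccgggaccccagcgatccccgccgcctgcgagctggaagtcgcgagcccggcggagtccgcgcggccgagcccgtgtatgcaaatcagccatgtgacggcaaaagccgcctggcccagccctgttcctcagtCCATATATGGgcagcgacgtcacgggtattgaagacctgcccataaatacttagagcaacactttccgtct
NAB1: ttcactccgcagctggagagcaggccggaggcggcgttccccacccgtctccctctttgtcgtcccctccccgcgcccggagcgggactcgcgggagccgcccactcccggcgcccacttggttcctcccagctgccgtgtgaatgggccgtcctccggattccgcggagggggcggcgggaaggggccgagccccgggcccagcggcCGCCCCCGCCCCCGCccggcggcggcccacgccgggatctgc
NAB2: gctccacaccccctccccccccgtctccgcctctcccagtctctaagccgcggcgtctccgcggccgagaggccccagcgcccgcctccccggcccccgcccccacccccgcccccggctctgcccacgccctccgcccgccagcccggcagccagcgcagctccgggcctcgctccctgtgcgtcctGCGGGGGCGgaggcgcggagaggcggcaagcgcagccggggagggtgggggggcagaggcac

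The EGR1 promoter held 2 CArG boxes, 105 to 96 and 83 to 74 bases before the start, and 1 EGR site further upstream. One of the 3 EGR2 promoters held 1 CArG box, 71 to 62 bases before its start, and a different one held 1 EGR site after its start. Of all 35116 promoters, 1.29% held a CArG box and 9.43% an EGR site. The promoters of NAB1, NAB2 and EGR4 held no match to the CArG box. NAB2 had 1 EGR site, 62 to 54 bases before its start, and the first NAB1 promoter had 3, of which 2 overlap each other before the start and 1 lies in the 50 bases after it, not printed here. The second NAB1 promoter, whose window overlaps the first, had 4, and the third had none. The ETS site CCGGAAGT, found in 4.14% of promoters, and the full CRE TGACGTCA, found in 1.85%, matched none of the 9 entries. The shorter CRE core TGACG was common, at 24.6% of all promoters, and occurred in at least 1 entry of EGR1, EGR2, EGR4 and NAB1 but not in that of NAB2. These matches describe letters in these windows and show no binding.

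EGR1 (ENSG00000120738), the best studied factor of the family, encoded on chromosome 5 (138465479 to 138469303, RefSeq GRCh38.p14, as for the other positions), was low without stimulation. The control libraries at 6 h gave 6.86, 6.93, 6.72 and 4.43 CPM and the AII libraries 6.68, 6.23, 7.35, 8.63 and 6.64 CPM. EGF libraries gave 112, 111 and 122 CPM, and AII + EGF libraries 189, 210, 242.5 and 283.5 CPM. At 6 h AII alone thus overlapped the control, EGF lay far above it, and every AII + EGF library lay above every EGF library. No time before 6 h was sampled, so an earlier rise of this or any other gene described here would not be seen. EGR1 rose by 4.21 ± 0.35 (log2 change ± SE) after EGF (adjusted p = 6.07e-11) and by 5.22 ± 0.35 after AII + EGF (adjusted p = 1.43e-14, quasi-likelihood test of edgeR, adjusted by Benjamini-Hochberg, as for all adjusted p-values below unless another test is named). A gene was called when the adjusted p was under 0.01, the change at least 1.5-fold and the higher group mean above 5 CPM. Its change after AII was 0.19 ± 0.32 (95% interval -0.426 to 0.811, adjusted p = 0.871). Because the RNA was taken from whole cultures, a higher share of responding cells and more RNA per responding cell cannot be told apart, here and in all results below. Where groups are said not to overlap, here and below, the share of all tested genes that separate in this way was not worked out.

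EGR3 (ENSG00000179388), on chromosome 8 (22687659 to 22693480), is a close relative of EGR1 that binds like sites. The control libraries at 6 h gave 1.91, 1.82, 1.45 and 1.23 CPM. AII libraries gave 4.05, 2.63, 2.96, 3.18 and 3.12 CPM, EGF libraries 12.96, 13.5 and 13.4 CPM, and AII + EGF libraries 44.9, 47.98, 48.6 and 47.9 CPM. The 4 groups did not overlap with one another. EGR3 rose by 3.05 ± 0.27 after EGF (adjusted p = 1.85e-10) and by 4.88 ± 0.27 after AII + EGF (adjusted p = 5.12e-17). After AII the log2 change was 0.99 ± 0.26 (adjusted p = 0.0275), with all 5 AII libraries above all 4 controls, but it missed the threshold of 0.01 and, at a mean of 3.19 CPM, the abundance minimum.

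EGR2 (ENSG00000122877), on chromosome 10 (62811996 to 62819167), best known for its part in myelination, was low throughout. The control libraries at 6 h gave 0.798, 0.821, 0.161 and 0.570 CPM, AII libraries 0.631 to 0.846 CPM, EGF libraries 2.499, 3.07 and 3.67 CPM, and AII + EGF libraries 9.08, 7.98, 8.13 and 10.1 CPM. Both groups with EGF lay apart from the control and from each other, and AII overlapped the control. EGR2 rose by 3.88 ± 0.32 after AII + EGF (adjusted p = 2.6e-12). After EGF its log2 change of 2.37 ± 0.34 passed the p threshold (adjusted p = 4.79e-06) but its mean of 3.08 CPM was under the abundance minimum, and it was not called.

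EGR4 (ENSG00000135625), on chromosome 2 (73290929 to 73293548), was at the edge of detection. The 4 control libraries at 6 h held 0 counts, which over the group allows up to 0.0365 CPM (3 counts). The groups at 6 h held 4 counts in all after AII, 5 after EGF and 14 after AII + EGF, the last equal to 0.181 CPM, with at most 6 in 1 library. The count of 14 has an exact Poisson interval of 7.65 to 23.5 (95%, counting error only). EGR4 thus had its highest count after AII + EGF, and at 24 h no group held more than 5.

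NAB2 (ENSG00000166886), on chromosome 12 (57089114 to 57095476), the inducible corepressor, rose in every stimulated group at 6 h. The control libraries gave 8.41, 7.11, 6.02 and 5.61 CPM. AII libraries gave 19.1, 20.5, 17.98, 19.7 and 15.6 CPM, EGF libraries 45.4, 42.4 and 47 CPM, and AII + EGF libraries 83.8, 84.6, 81.1 and 93.9 CPM. The 4 groups followed one another without overlap. NAB2 rose by 1.45 ± 0.14 after AII (adjusted p = 2.55e-09), by 2.73 ± 0.15 after EGF (adjusted p = 1.17e-15) and by 3.66 ± 0.15 after AII + EGF (adjusted p = 3.5e-20). It was the only one of the 5 tested genes called after AII, where 0.469% of all tested genes were called.

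NAB1 (ENSG00000138386), on chromosome 2 (190648895 to 190692766), the related corepressor, stayed between 57.0 and 80.4 CPM in the 16 libraries at 6 h. Its group means were 63.6 ± 5.93 (SD, n = 4) in control, 69.5 ± 6.62 (n = 5) after AII, 58.9 ± 1.48 (n = 3) after EGF and 71.5 ± 7.10 CPM (n = 4) after AII + EGF. Each stimulated group overlapped the control. NAB1 was called in 0 of the 16 comparisons by edgeR, where 4 had an unadjusted p under 0.05, and in 0 by DESeq2. Its log2 changes against control at 6 h were 0.13 ± 0.11 after AII, -0.11 ± 0.12 after EGF and 0.17 ± 0.11 after AII + EGF. The last had a 95% interval of -0.0471 to 0.385.

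**Figure D1:**
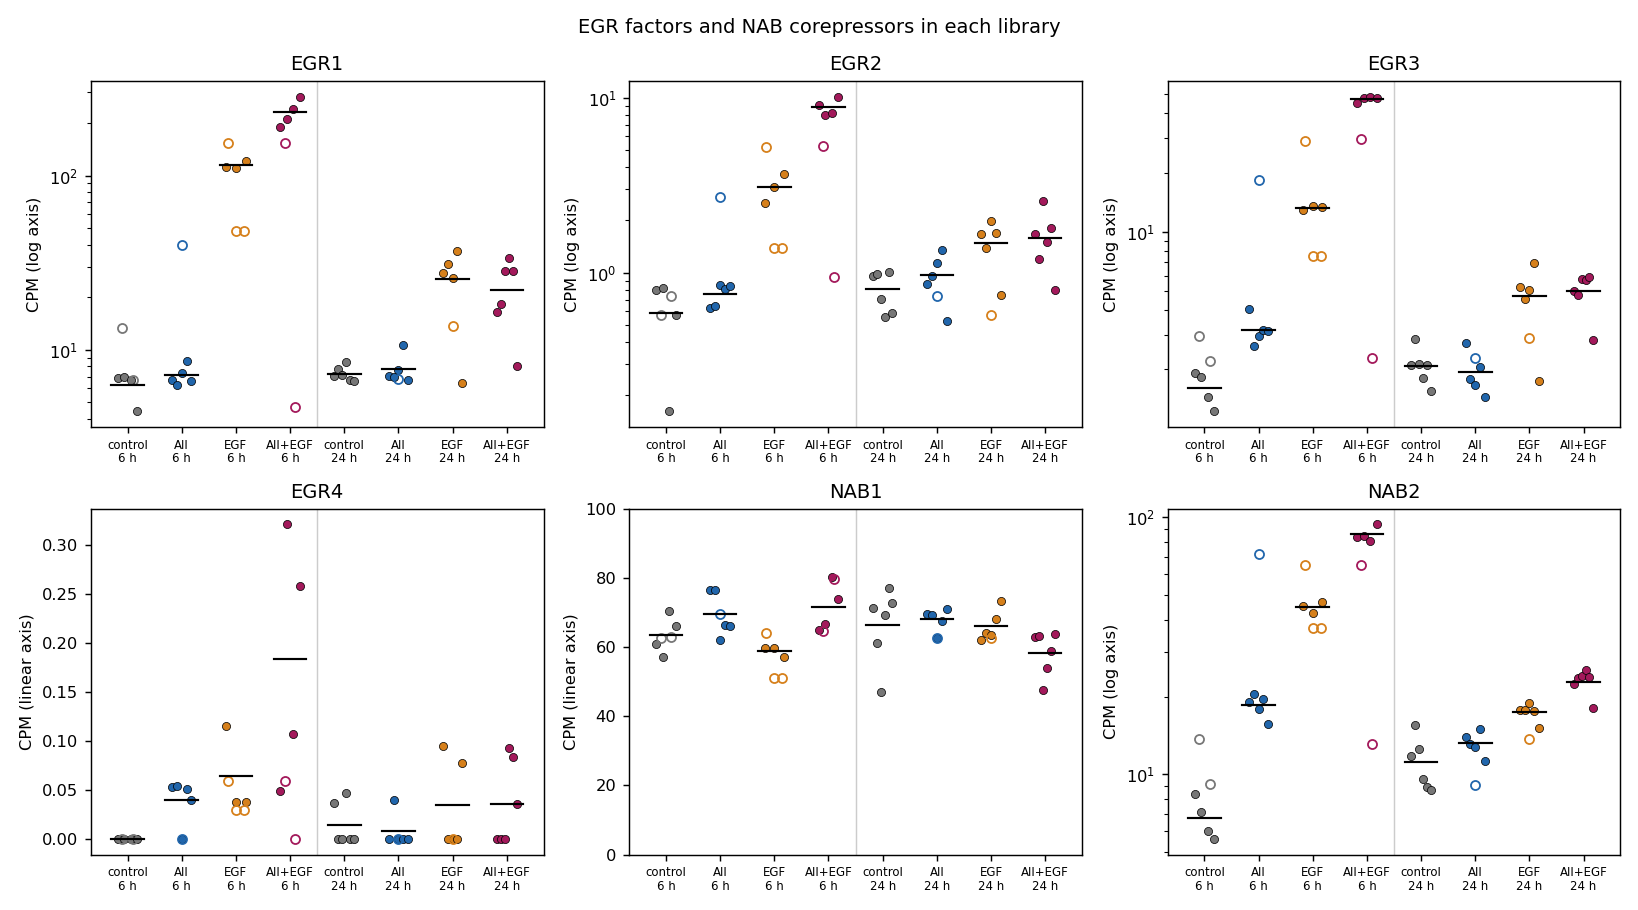
CPM of the 6 genes in each library by group (log axes for EGR1, EGR2, EGR3 and NAB2, linear axes for EGR4 and NAB1). Filled points are the 38 libraries used with the group mean as a line, and open points are the 10 left out. EGR1, EGR2, EGR3 and NAB2 are highest after AII + EGF for 6 h, NAB1 stays between 46.9 and 80.4 CPM in the libraries used, and 1 EGF and 1 AII + EGF library at 24 h lie at control level for EGR1.

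Of the 5 tested genes, EGF called 3 at 6 h (EGR1, EGR3 and NAB2, background 1.94% of 19626 tested genes) and AII + EGF called 4 (those and EGR2, background 12%). All were higher. NAB1 alone remained uncalled after AII + EGF. The transgene AGTR1 moved with the same stimulus, from 4271 ± 239 CPM (SD, n = 4) in control to 10040 ± 436 CPM (n = 4) after AII + EGF, a log2 change of 1.23 (adjusted p = 4.93e-07). Its part in these results was not tested.

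**Figure D2:**
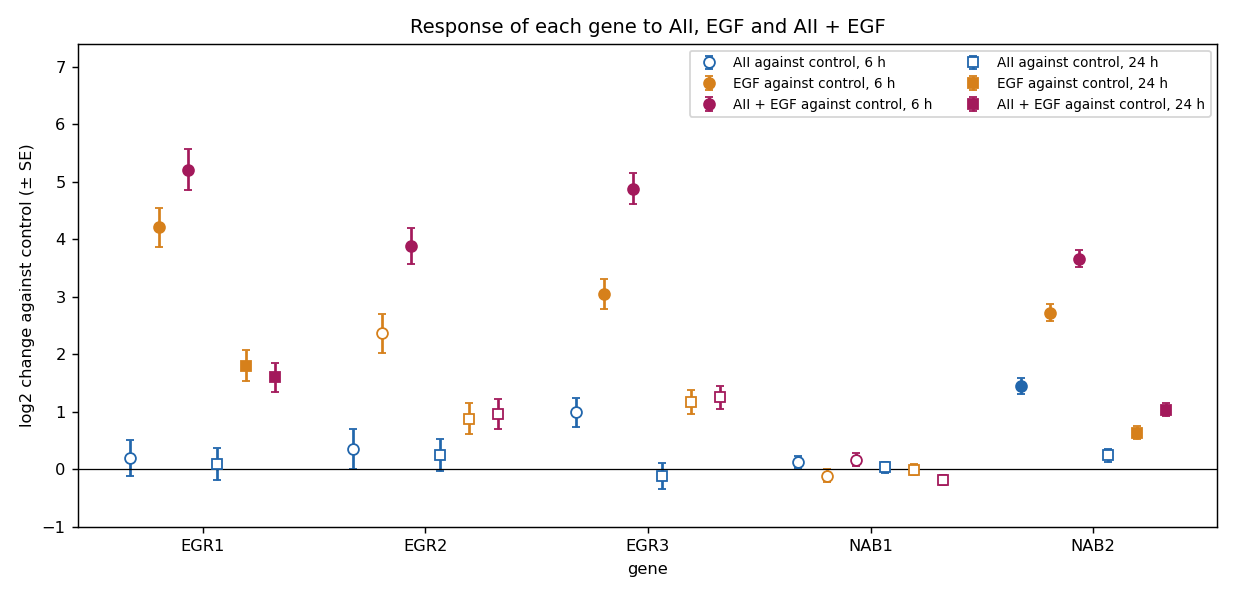
Log2 change against the control of the same time (y axis, ± SE) for each tested gene (x axis), for AII in blue, EGF in orange and AII + EGF in purple, with circles for 6 h and squares for 24 h. Filled symbols were called. At 6 h NAB2 is filled for all 3 stimuli and NAB1 lies near 0 throughout.

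NAB2 overlaps STAT6 by 69 bases, and because strandedness is not stated the reads of that overlap cannot be assigned. STAT6, a transcription factor of interleukin signalling, was at 39.3 ± 4.30 CPM (SD, n = 4) in control and 29.9 ± 5.62 CPM (n = 4) after AII + EGF at 6 h. Its log2 change was -0.39 ± 0.11 (adjusted p = 0.0031), opposite in sign to that of NAB2 and too small to be called. EGR3 overlaps the long non-coding RNA LOC107986924 by 45 bases, so a part of its counts is uncertain in the same way.

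Adding AII to EGF raised 3 of the 5 genes at 6 h beyond EGF alone, against a background of 2.92%. The log2 difference was 1.84 ± 0.24 for EGR3 (adjusted p = 1.26e-06), 1.52 ± 0.29 for EGR2 (adjusted p = 0.000424) and 0.93 ± 0.14 for NAB2 (adjusted p = 1.77e-05). EGR1 differed by 1.01 ± 0.32, with all 4 AII + EGF libraries above all 3 EGF libraries, but missed the threshold of 0.01 (adjusted p = 0.0334). EGR1 was called too without title runs 7 and 8 (1.01, adjusted p = 0.000107), with title runs as a block (1.15, adjusted p = 0.000358) and with only the groups compared in the fit (1.02, adjusted p = 0.000118). With the 2 libraries that went against their labels kept, the calls were lost, at 1.53 for EGR3 (adjusted p = 0.126), 1.23 for EGR2 (adjusted p = 0.145) and 0.67 for NAB2 (adjusted p = 0.359). NAB1 was higher by 0.28 ± 0.12 (adjusted p = 0.14), not called, though its 4 AII + EGF libraries also lay above all 3 EGF libraries. The share of all genes that separate in this way was not worked out.

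Against AII alone, AII + EGF raised 4 of the 5 genes at 6 h, with a background of 7.6%. The log2 differences were 5.02 ± 0.32 for EGR1, 3.89 ± 0.23 for EGR3, 3.53 ± 0.29 for EGR2 and 2.21 ± 0.13 for NAB2. Differences between genes were not tested here.

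Whether the joint fold change differed from the product of the single ones was asked with the interaction of both stimuli. None of the 5 genes was called by edgeR or by DESeq2 at 6 h (background 0.229%), although 3 had an unadjusted p under 0.05. The interaction was 0.82 ± 0.44 for EGR1, 1.17 ± 0.46 for EGR2 and 0.84 ± 0.35 for EGR3, each above 0, and -0.52 ± 0.20 for NAB2, below 0 (adjusted p = 0.565, 0.319, 0.36 and 0.284). The 3 factors and NAB2 had opposite signs, and none of them passed the test. These signs hold for the product of fold changes, and whether a joint rise exceeded the sum of the single rises was not tested. With the 2 doubtful libraries kept, EGR1 and EGR3 turned to -0.33 and -0.30. At 24 h the interaction was not called for any of the 5 (background 0%, no unadjusted p under 0.05, and no call by DESeq2).

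After 24 h the levels had come down. EGR1 in control libraries lay at 6.56 to 8.51 CPM with a median of 7.10 CPM, and in AII libraries at 6.68 to 10.7 CPM. EGF libraries gave 27.5, 30.9, 25.6, 36.9 and 6.43 CPM, and in AII + EGF libraries the lowest was 8.08, the median 23.2 and the highest 33.4 CPM. In the EGF group 1 library, replicate 6, lay below every control, in the AII + EGF group 1 library, replicate 6, lay within the control range, and all others lay above it. EGR1 rose by 1.80 ± 0.27 after EGF (adjusted p = 0.000161) and by 1.60 ± 0.26 after AII + EGF (adjusted p = 2.04e-05). Without title runs 7 and 8, which hold replicate 6 of each group, these changes were 2.04 (adjusted p = 5.26e-10) and 1.77 (adjusted p = 6.2e-10).

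NAB2 at 24 h was at 8.71 to 15.6 CPM in control (median 10.7 CPM) and at 11.3 to 15.03 CPM after AII. EGF libraries gave 17.8, 17.7, 18.9, 17.6 and 15.1 CPM, and AII + EGF libraries ranged from 18.1 to 25.5 CPM (median 23.8 CPM). AII overlapped the control, EGF overlapped it by 1 library and AII + EGF lay wholly above it. NAB2 rose by 0.64 ± 0.12 after EGF (adjusted p = 0.00201) and by 1.04 ± 0.11 after AII + EGF (adjusted p = 2.66e-08). Leaving out 1 library at a time, the EGF call was lost in 3 of 11 fits: without EGF replicate 4 (0.61, adjusted p = 0.0114) and, by falling under 1.5-fold, without control replicate 5 (0.58) or 6 (0.58). With only the EGF and control groups of 24 h in the fit, neither EGR1 (1.80, adjusted p = 0.0315) nor NAB2 (0.63, adjusted p = 0.156) passed.

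EGR3 and EGR2 stayed below the abundance minimum at 24 h. EGR3 was at 2.09 ± 0.438 CPM (SD, n = 6) in control, 4.72 ± 1.88 (n = 5) after EGF and 4.99 ± 1.14 CPM (n = 6) after AII + EGF, with 1.75 and 2.84 CPM in replicate 6 of the groups with EGF. Its log2 changes of 1.17 (adjusted p = 0.00178) and 1.25 (adjusted p = 2.41e-05) passed the p threshold, and without title runs 7 and 8 both were called (1.32 in each). EGR2 was at 0.801 ± 0.207 CPM in control (n = 6), 1.49 ± 0.464 after EGF (n = 5) and 1.58 ± 0.600 CPM after AII + EGF (n = 6). NAB1 remained at 46.9 to 77.1 CPM in the 22 libraries at 24 h, with no call.

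In all, 2 of the 5 genes were called after EGF at 24 h (background 0.245%) and 2 after AII + EGF (background 2.9%), namely EGR1 and NAB2 in both. AII called none of them by edgeR or by DESeq2 (background 0%, with 1 unadjusted p under 0.05, that of NAB2). AII + EGF called none against EGF by either tool (background 0.0917%, 1 unadjusted p under 0.05) and 2, EGR1 and NAB2, against AII (background 1.45%). With the 2 doubtful libraries kept in the fit, neither EGR1 nor NAB2 was called at 24 h after EGF (log2 changes 1.80 and 0.64, adjusted p = 0.0793 and 0.39) or AII + EGF (1.60 and 1.04, adjusted p = 0.0211 and 0.013).

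The response at 24 h was tested against that at 6 h as a difference of log2 changes. After AII, the log2 change of NAB2 was smaller at 24 h by 1.21 ± 0.18 (adjusted p = 0.000167). It was the only 1 of the 5 called (background 0.138%). Mean NAB2 went from 18.57 CPM at 6 h to 13.25 CPM at 24 h after AII, and from 6.787 to 11.19 CPM in control. The difference thus holds a rise of the control as well as a fall after AII. After EGF, the log2 change was smaller by 2.09 ± 0.19 for NAB2, 2.41 ± 0.42 for EGR1 and 1.88 ± 0.34 for EGR3. These were 3 of 5 called against a background of 1.03%. After AII + EGF, the differences were -2.63 ± 0.18 for NAB2, -3.61 ± 0.41 for EGR1, -2.92 ± 0.41 for EGR2 and -3.63 ± 0.32 for EGR3, 4 of 5 called against 11.6%. The 4 genes that rose after AII + EGF at 6 h thus had a smaller rise at 24 h. The 3 responses share the control libraries of both times, and with only the groups compared in the fit NAB2 after AII (adjusted p = 0.0125) and EGR3 after EGF (adjusted p = 0.0161) missed the threshold. With the 2 doubtful libraries kept NAB2 was not called after AII (adjusted p = 0.12), nor were NAB2, EGR1 and EGR3 after EGF (adjusted p = 0.0572, 0.191 and 0.291), while all 4 calls after AII + EGF passed.

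The control itself moved for 1 gene. NAB2 was 1.65-fold higher in control libraries at 24 h than at 6 h (log2 change 0.72 ± 0.13, adjusted p = 8.81e-05, background 6.73%), with all 6 libraries at 24 h above all 4 at 6 h. STAT6 rose as well (0.59 ± 0.10, adjusted p = 1.73e-05), as did AGTR1 (0.79, adjusted p = 0.00029). NAB2 missed the threshold with only the control groups in the fit (adjusted p = 0.0147) and with the 2 doubtful libraries kept (adjusted p = 0.115). The response of NAB2 at 24 h is thus relative to a higher control level.

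Levels of different genes can be compared per length only, here as CPM per kb of exon, with exon lengths of 3137 bases for EGR1, 3707 for EGR2, 5033 for EGR3, 4887 for NAB1 and 2861 for NAB2. In control libraries at 6 h the order was NAB1 (13.01 ± 1.21 CPM per kb, SD, n = 4), NAB2 (2.37 ± 0.437), EGR1 (1.99 ± 0.385), EGR3 (0.319 ± 0.0639) and EGR2 (0.159 ± 0.0825), where NAB2 and EGR1 did not differ beyond their spread. After AII + EGF for 6 h it was EGR1 (73.7 ± 13.1, n = 4), NAB2 (30 ± 1.95), NAB1 (14.6 ± 1.45), EGR3 (9.41 ± 0.324) and EGR2 (2.38 ± 0.267). EGR1 made up 80.6% ± 4.03 (SD, n = 4) of the summed EGR level in control and 85.9% ± 1.73 (n = 4) after AII + EGF, so that it remained the main factor. NAB2 went from 15.5% ± 3.32 of both corepressors to 67.2% ± 2.65 over the same groups, and at 24 h from 22.7% ± 6.59 in control (n = 6) to 40.3% ± 4.95 after AII + EGF (n = 6).

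How the corepressor moved relative to the factors was asked with log2 ratios within each library, which do not depend on scaling between libraries. At 6 h NAB2 to EGR1 was 1.198 in control (geometric mean, range 0.982 to 1.39), 2.87 after AII (2.501 to 3.60), 0.428 after EGF (0.418 to 0.443) and 0.411 after AII + EGF (0.363 to 0.486). AII raised the ratio and both stimuli with EGF lowered it, in each case without overlap with the control. The log2 differences were 1.26 after AII (exact permutation test, two-sided, p = 0.00794), -1.49 after EGF (p = 0.0286, exact permutation) and -1.54 after AII + EGF (p = 0.0286, exact permutation), each the smallest p these group sizes allow and each 0.0468 after adjustment over 18 ratio tests. Leaving out 1 library at a time raised the highest adjusted p to 0.0735, 0.139 and 0.0735, since fewer libraries allow only larger p-values, while the differences stayed at 1.17 to 1.33, -1.58 to -1.41 and -1.64 to -1.47.

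NAB2 to EGR3 moved in the same directions at 6 h. The log2 difference from control was 0.47 after AII (p = 0.0238), -0.33 after EGF (p = 0.0286) and -1.23 after AII + EGF (p = 0.0286, all exact permutation, adjusted 0.0468). NAB2 to NAB1 rose by 1.34 after AII, 2.85 after EGF and 3.51 after AII + EGF on the log2 scale, in every case without overlap with the control (adjusted p = 0.0468, exact permutation). Leaving out 1 library at a time, the calls of NAB2 to EGR3 and of NAB2 to NAB1 at 6 h were lost in 4 of 9 fits after AII, 7 of 7 after EGF and 4 of 8 after AII + EGF for each ratio, with the directions kept. At 24 h NAB2 to NAB1 remained higher after AII + EGF (1.24, p = 0.00217, adjusted 0.039, exact permutation).

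At 24 h NAB2 to EGR1 was 1.66 in control (1.24 to 2.19), 1.89 after AII (1.55 to 2.19), 0.866 after EGF (0.523 to 2.58) and 1.25 after AII + EGF (0.837 to 2.46). No difference from control passed the test (adjusted p = 0.277, 0.0629 and 0.19, exact permutation). The highest value of both groups with EGF belonged to replicate 6. Leaving out that library alone, the ratio passed after EGF (log2 difference -1.33, adjusted p = 0.0286, exact permutation) and after AII + EGF (-0.60, adjusted p = 0.0396, exact permutation). Without title runs 7 and 8 the adjusted p-values of these comparisons were 0.479, 0.0635 and 0.0649 (exact permutation), and the log2 difference after EGF was -1.36 in place of -0.93. NAB2 to EGR3 was higher after AII (0.39, adjusted p = 0.0468, exact permutation), and passed in only 1 of the 11 fits that leave out 1 library.

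**Figure D3:**
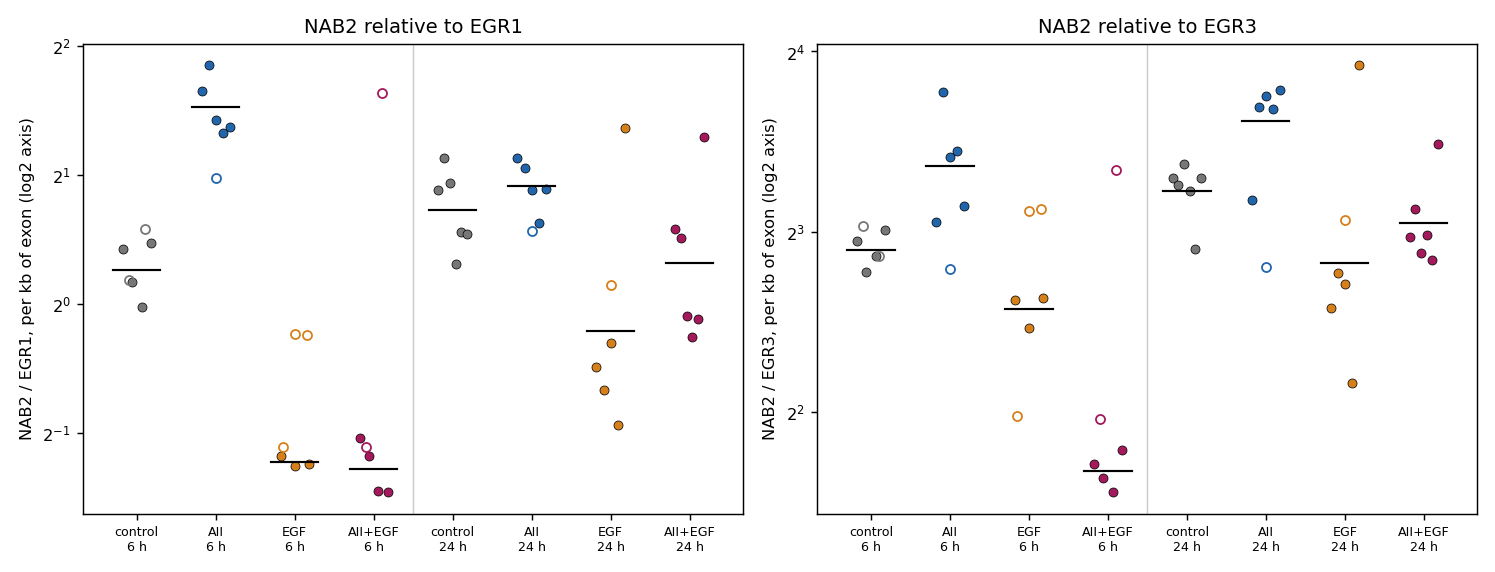
Ratio of NAB2 to EGR1 (left) and to EGR3 (right) in each library, per kb of exon, on log2 axes, by group. Filled points are libraries used with the geometric mean as a line, and open points are libraries left out. At 6 h AII libraries lie above the control and libraries with EGF below it for EGR1.

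Within groups, deviations from the group means of log2 CPM were compared over the 38 libraries for 6 relations of a factor with a corepressor (permutation within groups, 100000 resamples, Benjamini-Hochberg over the 6). NAB2 went with EGR3 (r = 0.62, adjusted p = 0.0003; rho = 0.631, adjusted p = 0.00096), EGR2 (r = 0.518, adjusted p = 0.00704; rho = 0.458, adjusted p = 0.0168) and EGR1 (r = 0.489, adjusted p = 0.00045; rho = 0.525, adjusted p = 0.00174). NAB1 went the other way, with r of -0.337 for EGR1 (adjusted p = 0.026), -0.44 for EGR2 (adjusted p = 0.00904) and -0.31 for EGR3 (adjusted p = 0.0508). With the runs of library titles removed together with the group means, none of the 6 passed: r was 0.325 for EGR3, 0.375 for EGR2 and 0.261 for EGR1 with NAB2 (adjusted p = 0.127, 0.127 and 0.219), and -0.102, -0.423 and -0.249 with NAB1. Without title runs 7 and 8 r with NAB2 was 0.446, 0.346 and 0.233 in the same order and did not pass either. The r of EGR2 with NAB1 was nearly as large as before and missed the threshold after adjustment (unadjusted p = 0.0144, adjusted p = 0.0866, permutation), while the r of the other relations was smaller in size. Without the 2 libraries farthest out in the factor the 3 relations with NAB2 kept an adjusted p under 0.05 (r of 0.613, 0.492 and 0.372).

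**Figure D4:**
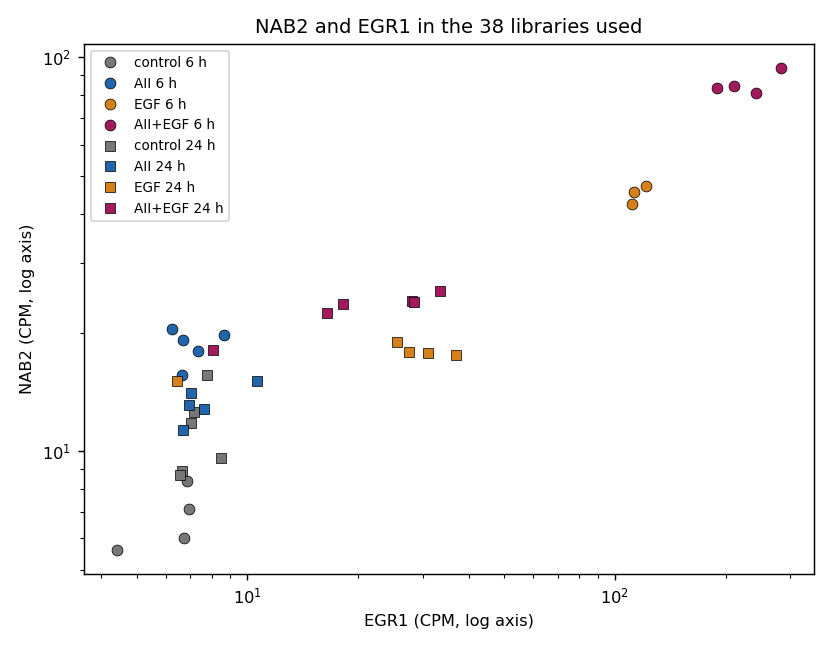
NAB2 against EGR1 (both CPM, log axes) in the 38 libraries used, with circles for 6 h, squares for 24 h and colours for the stimulus. AII libraries at 6 h lie above the control in NAB2 (15.6 to 20.5 CPM) at the same EGR1, and libraries with EGF at 6 h lie high in both.

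Over all 38 libraries, which fall into groups so that no p is given, the genes whose log2 CPM was most like that of each member were named among 11764 genes with a mean above 5 CPM. EGR1 was closest to SPRY2 (r = 0.947), SPRED2 (0.942), AIF1L (0.923), BMP6 (0.921) and TRIM9 (0.919), where SPRY2 and SPRED2 encode inhibitors of growth factor signalling to ERK. EGR3 was closest to TRIM9 (0.967), SPRED2 (0.959), SPRY2 (0.949), TNFRSF12A (0.948) and FAM83G (0.947), and EGR2 to BMP6 (0.936), TRIM9 (0.933), INPP1 (0.921), SPRY2 (0.918) and FAM83G (0.917). NAB2 was closest to TRIM9 (0.964), CSRNP1 (0.95), GJA3 (0.947), TNFRSF12A (0.944) and SPRED2 (0.937), of which TRIM9, TNFRSF12A and SPRED2 were also among the 5 closest to EGR3. NAB1 was closest to SKIL (0.898), a corepressor of TGF-beta signalling, DCUN1D4 (0.871), GOPC (0.87), SLC35A3 (0.855) and DPY19L3 (0.838), none of which was among the 5 closest to another member. Among the members r was 0.962 between EGR1 and EGR3, 0.954 between EGR3 and NAB2 and 0.908 between EGR1 and NAB2, against -0.018 between NAB1 and NAB2.

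Genes upstream and downstream of the factors were taken from lists, described by counts only. Of 23 described EGR target genes 20 were tested. After AII at 6 h none was called by edgeR, with 9 at an unadjusted p under 0.05 and 1 called by DESeq2, and the median log2 change was 0.33 against -0.01 over all tested genes. After EGF 6 of the 20 were higher (median 0.62 against -0.01, with 1.94% of all tested genes called), with the lowest p-values for ARC (log2 change 2.37), CCND1 (0.71), TGFB1 (2.31) and FLT1 (0.78). After AII + EGF 11 of the 20 were higher (median 0.95 against -0.03, with 12% of all tested genes called), with ARC, an immediate-early gene of the synapse, at 5.43, F3, tissue factor, at 2.03, PDGFA, a growth factor subunit, at 1.55 and FLT1, a VEGF receptor, at 1.61.

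ARC went from 5.76 ± 0.822 CPM (SD, n = 4) in control to 7.84 ± 1.22 (n = 5) after AII, 29.8 ± 1.97 (n = 3) after EGF and 248 ± 25.6 CPM (n = 4) after AII + EGF. The authors count ARC among the genes that respond to SRF, and the part of EGR factors in its change was not tested. After AII, PDGFA had a log2 change of 0.58 (adjusted p = 0.00642), just under 1.5-fold. PDGFA went from 7.46 ± 0.350 to 11.2 ± 1.12, 11.45 ± 1.201 and 21.9 ± 1.84 CPM in the same order. ARC was the only described target with a called interaction at 6 h (2.62 ± 0.41, adjusted p = 0.000495), where DESeq2 called 2. Of these targets AII + EGF for 24 h kept ARC (2.96) and HPSE (0.73), the heparan sulphate cleaving enzyme, called as higher. These were 2 of 20, with 2.9% of all tested genes called, and DESeq2 called 3. EGF for 24 h kept ARC (1.66), 1 of 20, with 0.245% of all tested genes called.

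**Figure D5:**
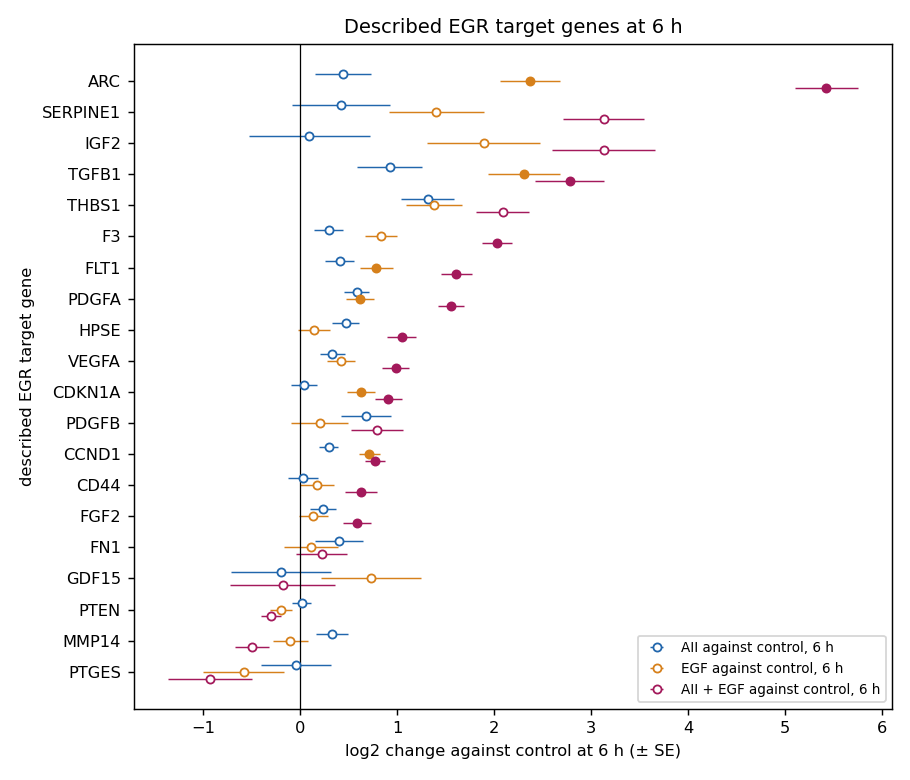
Log2 change against control at 6 h (x axis, ± SE) for the 20 tested target genes (y axis, ordered by the change after AII + EGF), with AII in blue, EGF in orange and AII + EGF in purple. Filled symbols were called, and open symbols can lie far from 0 where a gene was under 5 CPM. AII has no filled symbol, EGF has 6 and AII + EGF has 11.

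SRF and its cofactors (SRF, ELK1, ELK3, ELK4, MRTFA and MRTFB), listed as regulators of EGR1 transcription without regard to direction, were all tested. Only their RNA levels were measured, and their part in the change of EGR1 was not tested. Of these 6 genes, 1 was called, ELK3, a ternary complex factor, after AII + EGF at 6 h (0.59, adjusted p = 5.11e-05), where 12% of all tested genes were called, and the list median was 0.08. After AII and after EGF at 6 h edgeR and DESeq2 called none of the 6, with 0 and 1 at an unadjusted p under 0.05. Of the 13 NuRD subunits, the complex that NAB proteins bring to EGR sites, 1 was called after AII + EGF at 6 h, GATAD2A (0.78, adjusted p = 3.02e-08), a share no higher than the 12% of all tested genes. The list median was 0.01, and AII and EGF called none by either tool, with 2 and 1 at an unadjusted p under 0.05.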

How the data were processed

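Poly(A) RNA of 48 libraries was sequenced, and the authors aligned the reads with HISAT2 2.1.0 to hg38 and counted them per gene with featureCounts. The deposited table holds raw counts of 60610 genes. Whether strand was used in counting is not given in the sources used here. Counts were scaled with TMM factors, filtered with filterByExpr (19626 genes left) and tested with edgeR 4.0.16 (R 4.3.3) by the quasi-likelihood test in 1 fit of 38 libraries and 8 groups, with Benjamini-Hochberg adjustment over all tested genes. DESeq2 1.42.0 was the alternative test. Log2 CPM used a prior count of 2. On simulated counts of 19626 genes, for EGF against control at 6 h, edgeR recovered 199 of 200 changed genes with 1 false call. Recovery was not worked out separately for genes as low as EGR2 and EGR3, for changes near the fold threshold or with title-run effects. The simulation thus does not show how well changes of the genes described here are recovered. Replicate numbers follow accession order. Title runs are 8 stretches of consecutive library titles, which the labels do not call batches. Members are all reported, and of the described targets the 4 with the lowest p among those called in each main comparison, any other being named after its values were seen. The members and lists were chosen with earlier results of these data known. Exon lengths came from GENCODE v44, and positions and promoters from RefSeq GRCh38.p14. One gene of the target list is not reported here, and the counts and medians of the list leave it out.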

Additional observations from a re-analysis of the deposited data

Results flagged for a closer look

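Of 35 sets examined (1 gene in 1 group of 4 to 6 libraries), 3 had a library far from the others: EGR1 in control 6 h replicate 6 (4.43 CPM), EGR1 in AII 24 h replicate 5 (10.7 CPM) and EGR3 in AII + EGF 24 h replicate 6 (2.84 CPM). Chance gives about 1 in 20 such sets. The response differed between 24 h and 6 h (edgeR, difference of log2 changes) for NAB2 after AII (-1.21), for EGR1 (-2.41), EGR3 (-1.88) and NAB2 (-2.09) after EGF, and for EGR1 (-3.61), EGR2 (-2.92), EGR3 (-3.63) and NAB2 (-2.63) after AII + EGF.

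Several of the libraries left out of the tests lay above the highest control used at their time, for EGR1, NAB2 or both. The library labelled EGF 6 h replicate 1 had 153.7 CPM of EGR1 and 65.07 CPM of NAB2, and its near-identical partner labelled AII + EGF 6 h replicate 4 had 154.6 and 65.44 CPM. The pair labelled EGF 6 h replicates 2 and 6 had 48.03 and 48.19 CPM of EGR1 and 37.22 and 37.23 CPM of NAB2. The library labelled EGF 24 h replicate 2 had 13.58 CPM of EGR1, with NAB2 within the control range (13.69 CPM). Its near-identical partner labelled control 6 h replicate 1 had 13.22 CPM of EGR1 and 13.71 CPM of NAB2. The library labelled AII 6 h replicate 6 had 40.07 CPM of EGR1 and 71.73 CPM of NAB2, and that labelled AII + EGF 6 h replicate 6 had 13.18 CPM of NAB2, with EGR1 at control level (4.656 CPM). The library labelled AII 24 h replicate 4 did not lie above the controls in EGR1 (6.75 CPM) or NAB2 (9.091 CPM). Its near-identical partner labelled control 6 h replicate 2 had 6.69 CPM of EGR1 and 9.138 CPM of NAB2. Both left-out libraries labelled control 6 h thus lay above the highest control used at 6 h in NAB2 (8.406 CPM).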

How the results depend on the processing

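Of the log2 changes of single genes under alternatives other than leaving out 1 library, 657 kept direction and side of the threshold, 32 lost the call, 15 gained it and 11 changed sign. Where no cause is given below, the cause was not tested. Libraries were not paired by replicate number, since these numbers follow accession order and the labels name no pairs. Title runs were used as a block in 15 of the 16 comparisons, which added the call of EGR1 in AII + EGF against EGF at 6 h (1.15) and changed no other call. The block could not be fitted for the controls of 24 h against 6 h, since runs lie within a time.

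With all 48 libraries edgeR called 0 of the 5 members for EGF against control at 24 h (0.0207% of all tested genes called, 2 members at an unadjusted p under 0.05), AII + EGF against control at 24 h (2.45%, 5 members), AII + EGF against EGF at 6 h (0.331%, 4), AII + EGF against AII at 24 h (1.39%, 4), the AII response over time (0.103%, 2) and the controls over time (1.82%, 0), and 1 for the EGF response over time (0.936%). With 40 libraries (the 2 doubtful ones kept) it called 0 members for these 7, with 0.107%, 2.52%, 0.168%, 0.95%, 0.0711%, 6.13% and 0.00508% of all genes called and 4, 5, 3, 4, 2, 1 and 4 members at an unadjusted p under 0.05. With only the groups compared it called 0 for EGF at 24 h (0.0113%, 4 members), the AII response over time (0.0967%, 2) and the controls over time (4.48%, 1). DESeq2 was not run on these sets. With no abundance minimum AII + EGF at 24 h called 4. Leaving out 1 library at a time, EGF at 24 h called 1 to 3. Under every alternative run, the number called against control at 6 h was 1 after AII, 4 after AII + EGF and 3 to 4 after EGF. With changes of library set, tool, scaling, filter, block or groups fitted, the total called over all genes ran from 71 to 113 after AII. That total ran from 121 to 508 after EGF and from 1604 to 2443 after AII + EGF. Totals are not given for fits without 1 library or with a changed threshold.

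Changes of sign were seen only for changes that were not called. With 48 libraries EGR3 had an interaction of -0.14 at 6 h, EGR2 of 0.0888 at 24 h and EGR1 a control difference of -0.0373. With 40 libraries the interaction at 6 h was -0.33 for EGR1 and -0.30 for EGR3. With 33 libraries NAB1 after EGF at 24 h was 0.000361, EGR3 in AII + EGF against EGF at 24 h -0.00245 and EGR1 in the AII response over time 0.0509. NAB1 after EGF at 24 h was 0.00412 with DESeq2, 0.0042 with RLE factors and 0.00841 with title runs as a block. Leaving out 1 library at a time gave ranges across 0 for EGR1 after AII at 24 h (-0.043 to 0.146) and in the AII response over time (-0.235 to 0.0354), EGR2 in AII + EGF against EGF at 24 h (-0.106 to 0.235) and in the AII response over time (-0.306 to 0.191), EGR3 in AII + EGF against EGF at 24 h (-0.132 to 0.263) and in the interaction at 24 h (-0.0145 to 0.38), and NAB1 in AII + EGF against AII at 6 h (-0.0207 to 0.0832), after AII at 24 h (-0.0462 to 0.0811) and after EGF at 24 h (-0.0838 to 0.042).

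Log2 ratios that no longer passed were, with 48 libraries, NAB2 to EGR1 after AII + EGF at 6 h (-1.07) and NAB2 to EGR3 after AII (0.353) and EGF (-0.26) at 6 h and AII at 24 h (0.255). With 40 libraries they were NAB2 to EGR1 after EGF (-1.486) and AII + EGF (-0.961), NAB2 to EGR3 after AII (0.369), EGF (-0.327) and AII + EGF (-0.895), and NAB2 to NAB1 after EGF (2.848) and AII + EGF (2.936) at 6 h, and NAB2 to EGR3 after AII at 24 h (0.3904). With 33 libraries, an alternative chosen for ratios and correlations after seeing the data, they were at 6 h 1.332, -1.414 and -1.473 (to EGR1), 0.5008, -0.2917 and -1.193 (to EGR3) and 1.23, 2.743 and 3.403 (to NAB1) after AII, EGF and AII + EGF, and at 24 h 0.3634 for NAB2 to EGR3 after AII and 1.233 for NAB2 to NAB1 after AII + EGF. Smaller groups raise the smallest p that can be reached.

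Leaving out 1 library at a time, NAB2 to EGR1 ranged from 1.165 to 1.332 after AII, -1.581 to -1.414 after EGF and -1.64 to -1.473 after AII + EGF at 6 h, and from -1.328 to -0.7524 after EGF and -0.6016 to -0.2908 after AII + EGF at 24 h. NAB2 to EGR3 ranged from 0.3631 to 0.5436, -0.3681 to -0.2744 and -1.27 to -1.189 at 6 h, and from 0.3256 to 0.5003 (AII), -0.6726 to -0.2313 (EGF) and -0.266 to -0.1369 (AII + EGF) at 24 h. NAB2 to NAB1 ranged from 1.23 to 1.465, 2.743 to 2.978 and 3.403 to 3.637 at 6 h, and from 0.5503 to 0.792 after EGF at 24 h. Without replicate 6 of the stimulated group NAB2 to EGR1 and NAB2 to EGR3 passed at 24 h after EGF (-1.328 and -0.6726) and AII + EGF (-0.6016 and -0.266), and NAB2 to NAB1 passed after EGF without EGF replicate 6, control replicate 2 or control replicate 3. Correlations that no longer passed were EGR1 with NAB1 (-0.175) and EGR2 with NAB1 (-0.178) with 48 libraries, EGR1 with NAB1 (-0.283) with 40, all 5 that had passed with title runs removed (NAB1: -0.102 for EGR1 and -0.423 for EGR2; NAB2: 0.261, 0.375 and 0.325 for EGR1, EGR2 and EGR3) and with 33 libraries (NAB1: -0.197 and -0.349; NAB2: 0.233, 0.346 and 0.446), and both with NAB1 without the 2 libraries farthest out (-0.24 and -0.355). The number of libraries, 3 to 6 per group, limits what could be detected, and depth limits EGR4.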
